A study of Mus musculus with 11 samples.

Results

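The transcripts described here are those of the mouse mitochondrial genome, taken as every gene whose symbol starts with mt-. This rule gave 37 of the 50686 genes in the count tables, made up of 13 mRNAs, 2 rRNAs and 22 tRNAs. All 37 lie on chromosome M of GRCm38, 28 on the plus strand and 9 on the minus strand. Every member but the lysine tRNA mt-Tk had at least 1 count in some library, and only the 13 mRNAs are listed in the TPM tables.

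RNA-Seq was made from GL261 allografts, which are brain tumours formed by implanted cells of the murine glioma line GL261, and from microglia sorted from such tumours. All mice were C57BL/6, received tamoxifen 3 weeks before the injection, were injected at 6 weeks of age and were sampled about 3 weeks later. Sorted tumour-associated microglia (TAM-MG) gave 3 KO libraries (54, 63 and 65) and 2 WT libraries (74 and 78), and whole tumours (bulk) gave 3 KO libraries (26, 36 and 37) and 3 WT libraries (35, 38 and 110). KO mice carry Rheb1 fl/fl together with the knock-in Cx3cr1-CreERT2, so that Cre deletes exon 3 of Rheb1 in cells that express Cx3cr1, which takes in microglia and part of the blood-derived macrophages. The mice labelled WT are Rheb1 fl/fl without Cre, and the injected GL261 cells are the same in both genotypes. TAM-MG were live CD11b+ CD45low cells sorted into TRIzol, while bulk RNA was scraped from formalin-fixed, paraffin-embedded (FFPE) slides. The kind of sample, its fixation and its RNA extraction therefore cannot be told apart in any comparison of TAM-MG with bulk. The labels number the libraries but do not say whether each came from a separate mouse, so p-values measure only the spread between these samples.

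The mitochondrial genome is a small circle that cells hold in many copies. Both of its strands are transcribed into long precursors, and tRNAs that lie between the other genes are cut out to free the rRNAs and mRNAs, a layout known as tRNA punctuation. The mRNAs encode core subunits of the respiratory chain and of ATP synthase, the rRNAs build the ribosome of the mitochondrion, and the proteins that copy, transcribe, process and stabilise these RNAs are all encoded in the nucleus. Rheb1 switches on mTORC1, a kinase complex known to promote the synthesis of mitochondrial proteins and the formation of mitochondria.

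Total gene counts ran from 20765767 to 29947977 in TAM-MG and from 14940787 to 21991348 in bulk. Rheb, the targeted gene, stood at 68.7 to 70.2 CPM in TAM-MG KO and at 92.7 and 153 CPM in TAM-MG WT, and at 123 to 214 CPM in bulk KO and 237 to 362 CPM in bulk WT, so that the genotypes did not overlap in either experiment. These counts cover the whole gene and not the deleted exon alone. The 11 microglial markers summed to between 22252 and 36422 CPM in TAM-MG and to between 887 and 1576 CPM in bulk, and the 19 neuronal markers to between 51.7 and 86.5 CPM in TAM-MG and to between 2707 and 6817 CPM in bulk. Bulk KO 37 stood apart from the other bulk libraries, with 31129 CPM of the nuclear rRNA gene CT010467.1 against 5737 to 12832 CPM in the other 5. Xist was counted at 615 CPM in bulk WT 35 and at no more than 0.314 CPM in any other library. Ddx3y, a gene of the Y chromosome, had 0 CPM in bulk WT 35 and 48.3 to 138 CPM in the other 5 bulk libraries. The labels give no sex, and its part in the genotype comparison was not tested. The bulk genotype comparison of mitochondrial share is also given without WT 35.

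Several mitochondrial genes have near-identical annotated copies in the nucleus, side by side on 1 chromosome, and this bears on how their reads can be placed. On chromosome 1 of GRCm38, 7 annotated pseudogenes, Gm28439, Gm10222, Gm28438, Gm28437, Gm10925, Gm28661 and Gm29216, match mitochondrial genes at 99% or more and lie side by side within chr1:24611535-24616197. They are annotated as separate genes. Their outer ends match positions 6390 and 11042 of chromosome M, and the span between these ends is called the copied stretch below. It takes in 11 of the 37 members in full, which are the mRNAs mt-Co2, mt-Atp8, mt-Atp6, mt-Co3, mt-Nd3 and mt-Nd4l and the tRNAs mt-Ts1, mt-Td, mt-Tk, mt-Tg and mt-Tr. Of these, mt-Co2, mt-Atp6, mt-Co3, mt-Nd3 and mt-Nd4l match the annotated copies over 99.1 to 100% of their bases, mt-Atp8 over 21.1%, mt-Ts1 over 3 of 69 bases and the other 4 tRNAs over 0. Also matched were 31.3% of mt-Co1 and 63.6% of mt-Nd4. Only annotated transcripts were searched, so the sequence of chromosome 1 between the annotated pseudogenes was not compared. The low matches of mt-Atp8 and of the tRNAs therefore do not show that these genes lack a copy there. The sequences below show why this matters for reads of 75 bases. They set a stretch of each of 4 mRNAs beside the same stretch of its closest annotated nuclear copy. They run 5′ to 3′ on the strand of the gene, from GENCODE M21 transcripts on GRCm38, with capitals at the bases that differ. The stretch of mt-Co2 is its start, and that of mt-Nd3 holds its only difference. Those of mt-Cytb and mt-Nd6 were picked as the stretches with the most differences (9 and 13), so other stretches differ by as much or less. mt-Co2 encodes subunit II of cytochrome c oxidase and mt-Nd3 a subunit of complex I, both inside the copied stretch, while mt-Cytb, the cytochrome b of complex III, and mt-Nd6, the only mRNA on the minus strand, lie outside it and have more diverged copies on chromosome 4.
mt-Co2, bases 1 to 75: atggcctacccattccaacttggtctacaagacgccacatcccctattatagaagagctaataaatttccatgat
Gm28661, chromosome 1: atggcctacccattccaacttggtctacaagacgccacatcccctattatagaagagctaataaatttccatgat
mt-Nd3, bases 1 to 75: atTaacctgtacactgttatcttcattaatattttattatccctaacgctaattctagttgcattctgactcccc
Gm28438, chromosome 1: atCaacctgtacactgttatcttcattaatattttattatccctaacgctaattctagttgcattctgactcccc
mt-Cytb, bases 391 to 465: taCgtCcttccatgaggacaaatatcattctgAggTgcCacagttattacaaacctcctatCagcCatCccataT
Gm11410, chromosome 4: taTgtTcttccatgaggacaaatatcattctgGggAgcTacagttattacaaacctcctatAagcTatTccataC
mt-Nd6, bases 253 to 327: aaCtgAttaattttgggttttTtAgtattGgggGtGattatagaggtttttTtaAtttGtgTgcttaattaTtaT
Gm11408, chromosome 4: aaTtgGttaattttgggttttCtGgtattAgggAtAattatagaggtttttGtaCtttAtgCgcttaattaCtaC

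mt-Co2 and Gm28661 had 0 differences over 681 aligned bases, so that all 607 windows of 75 bases were the same in both places. mt-Nd3 and Gm28438 had 1 difference over 345 bases, and 268 of 271 windows were the same. mt-Cytb and its copy differed at 81 of 1142 bases and mt-Nd6 and its copy at 33 of 519, and no window of 75 bases was free of a difference (0 of 1068 and 0 of 445). A read from an identical window cannot be placed by its own sequence. Counting programs commonly leave out reads that cannot be placed, whereas Salmon divides them among the transcripts they fit. The reads came in pairs, and a mate outside the identical bases can place both. How many pairs were placed in this way was not tested. The 6 mRNAs inside the stretch held 0.0568 to 0.164% of the mitochondrial mRNA counts in TAM-MG and 0.0753 to 0.150% in bulk. By TPM the same 6 mRNAs held 43.8 to 53.7% of the mitochondrial mRNA in TAM-MG and 52.1 to 59.9% in bulk. In TAM-MG the copies Gm10925 and Gm29216 were themselves listed at 4754 to 11403 TPM and 5100 to 8655 TPM. The bulk TPM values do not list these copies, so copies cannot be added on both sides. The TPM of these genes in TAM-MG and in bulk may therefore be divided with the copies in different ways. How the authors' counting treated reads that fit more than 1 place was not tested. Both counts and TPM of the 6 mRNAs are given below.

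**Figure D1:**
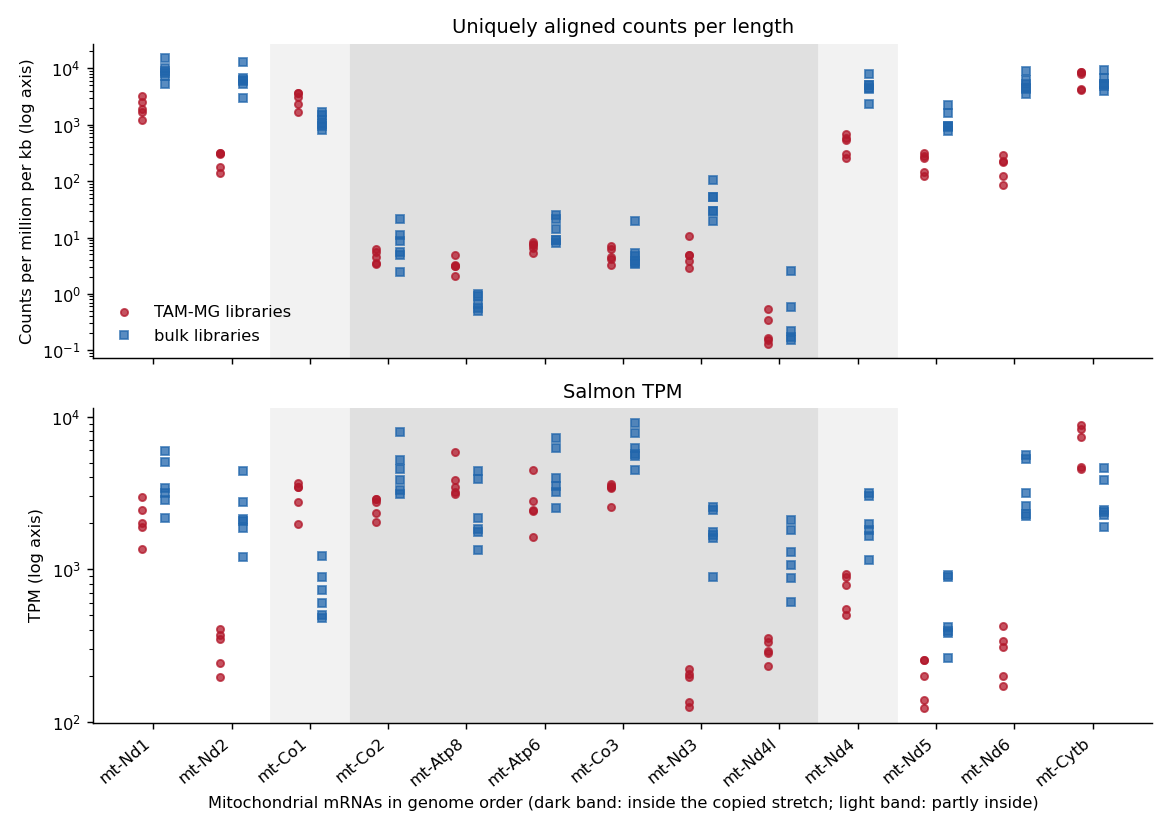
The 13 mitochondrial mRNAs in genome order, as CPM per kb of gene length (upper panel, log axis) and as Salmon TPM (lower panel, log axis), with 1 point per library for 5 TAM-MG libraries (circles) and 6 bulk libraries (squares). Genes inside the copied stretch (dark band) reach at most 106 CPM per kb in any library, while their lowest TPM in any library is 125. A library with no count for a gene has no point.

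Mitochondrial transcripts made up a smaller share of the counts in TAM-MG than in bulk. They took 1.26, 2.22 and 2.02% of all gene counts in TAM-MG KO 54, 63 and 65 and 1.05 and 2.23% in TAM-MG WT 74 and 78. In bulk they took 8.68, 6.09 and 10.3% in KO 36, 37 and 26 and 6.48, 7.07 and 5.88% in WT 35, 38 and 110. The highest TAM-MG library was thus below the lowest bulk library, and the means were 1.76 ± 0.558% (SD, n = 5) in TAM-MG and 7.41 ± 1.73% (SD, n = 6) in bulk (difference -5.66 percentage points, exact permutation test, two-sided, p = 0.00433, which is the smallest that 5 against 6 allows; adjusted p = 0.0182 over 21 comparisons of shares). With single libraries left out the difference ran from -5.96 to -5.08. Adding the counts of the annotated nuclear copies gave -5.67. Those copies held on average only 0.00321% of counts in TAM-MG and 0.0160% in bulk, so their counts could hardly move the difference (their TPM is described below). In bulk samples, a lower share of mitochondrial RNA in each cell and a different mix of cells cannot be told apart.

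The gap was widest for the rRNAs. The 2 rRNAs took 0.178 ± 0.0518% of counts in TAM-MG (n = 5) and 3.73 ± 0.773% in bulk (n = 6), a level 20.9 times as high in bulk (exact permutation test, p = 0.00433, adjusted p = 0.0182). The 13 mRNAs took 1.56 ± 0.506% in TAM-MG and 3.63 ± 1.35% in bulk, 2.32 times as high in bulk, again without overlap (exact permutation test, p = 0.00433, adjusted p = 0.0182). Nearly all of these counts came from mRNAs not wholly inside the copied stretch. The 22 tRNAs took 0.00655 to 0.0244% in TAM-MG and 0.0200 to 0.108% in bulk, and here the ranges met (exact permutation test, p = 0.0217, adjusted p = 0.0758). tRNA genes are at most 75 bases long, so a read there cannot be told from one of an uncut precursor.

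Within the mitochondrial counts, the make-up differed as much as the total. rRNAs were 12.3, 8.401 and 9.51% of mitochondrial counts in TAM-MG KO 54, 63 and 65 and 10.3 and 11.2% in WT 74 and 78. In bulk they were 53.8, 64.5 and 40.01% in KO 36, 37 and 26 and 51.3, 55.8 and 41.2% in WT 35, 38 and 110. The mean of 10.3 ± 1.48% in TAM-MG against 51.1 ± 9.27% in bulk is a difference of -40.8 percentage points that does not depend on the rest of the library (exact permutation test, p = 0.00433, adjusted p = 0.0182). It does depend on which mitochondrial genes are counted. The 6 mRNAs inside the copied stretch gave almost no counts. By TPM they held 43.8 to 53.7% of the mitochondrial mRNA in TAM-MG and 52.1 to 59.9% in bulk. The rRNA share with all reads of these genes counted was not tested. TAM-MG libraries lay close to each other, whereas the bulk libraries spread widely, with KO 37 highest and KO 26 lowest. RNA that stays in the nucleus, such as Malat1, also differed between the kinds of sample, with 780 to 4128 CPM of Malat1 in TAM-MG and 10734 to 17480 CPM in bulk. Genes induced when tissue is dissociated summed to 4944 to 17381 CPM in TAM-MG and 1145 to 1972 CPM in bulk, and the part of any of these in the mitochondrial shares was not tested.

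**Figure D2:**
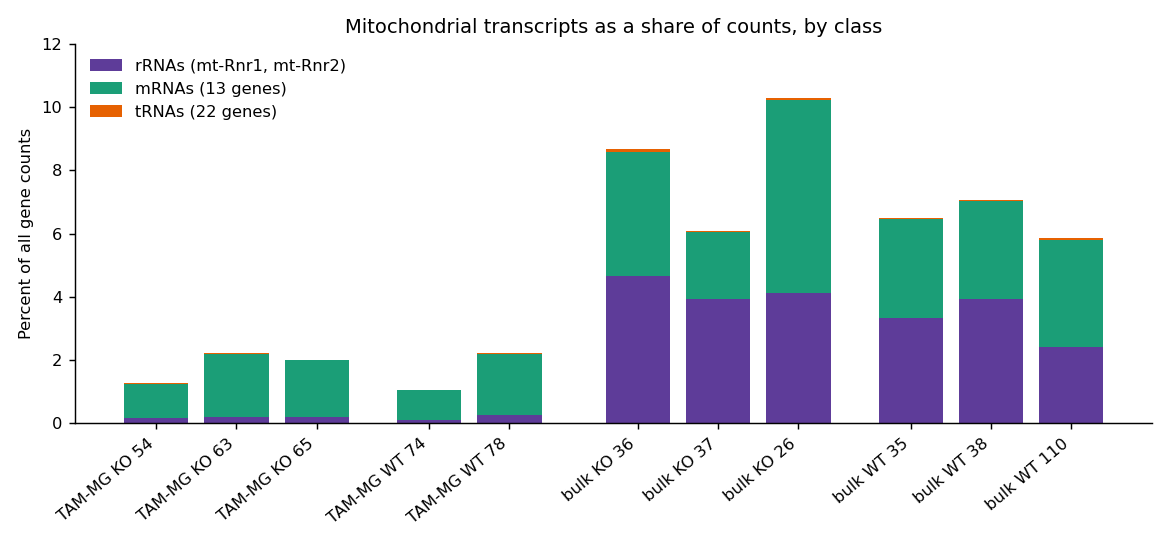
Percent of all gene counts in mitochondrial rRNAs, mRNAs and tRNAs (stacked) in each of the 5 TAM-MG and 6 bulk libraries. The TAM-MG totals run from 1.05 to 2.23% with 87.0 to 90.6% of them mRNA, while the bulk totals run from 5.88 to 10.3% with 40.01 to 64.5% of them rRNA. mRNAs inside the copied stretch add almost no counts in either.

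The TPM values, which hold no mitochondrial rRNA or tRNA, gave a smaller gap. The TPM of the 13 mRNAs, as a percent of the full TPM scale, summed to 2.26, 2.91 and 2.95% in TAM-MG KO 54, 63 and 65 and to 1.86 and 3.25% in WT 74 and 78. In bulk they summed to 5.50, 2.32 and 5.34% in KO 36, 37 and 26 and to 3.06, 3.25 and 2.89% in WT 35, 38 and 110. On this scale bulk KO 37 and all 3 bulk WT libraries fell inside the TAM-MG range, and bulk KO 36 and KO 26 lay above it. The deposited bulk TPM values cover 12719 genes and the TAM-MG values 34839, so the tables were scaled apart and no test was made between them. With the TPM of the near-identical copies added in TAM-MG alone, the sum there was 2.85 to 5.18% (mean 4.12 ± 0.944%, SD, n = 5), against 3.73 ± 1.35% in bulk without copies (n = 6), so that the direction of the means on this scale turned with the copies.

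Each gene was also compared between TAM-MG and bulk with edgeR's quasi-likelihood test over all 11 libraries, with calls made at 1.5-fold or more and a Benjamini-Hochberg adjusted p below 0.05. Of 31 members that passed the filter on low counts, 5 were called higher in TAM-MG and 22 lower, where 20.5% of all 21342 genes tested were called higher and 32.4% lower. In CPM after edgeR's TMM scaling, the same 5 higher and 22 lower were the numbers whose groups did not overlap, against 14.6% and 20.2% of all genes. The median log2 fold change was -2.81 over the 31 members and -0.89 over all genes. That median of all genes was -1.06 with RLE size factors and -1.45 with library size alone, so the level of all log2 fold changes here depends on the scaling. Of all calls, 38.7% were higher in TAM-MG (4370 higher and 6913 lower), against 27.7% with library size alone (3285 and 8562) and 49.9% when only genes that reached 10 counts in all 11 libraries were fitted (2279 and 2292). In that last fit 18 members remained, of which 1 was called higher and 13 lower (27.4% and 27.6% of 8311 genes), with a median of -2.88 against -0.02 over all those genes.

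Both rRNAs were lower in TAM-MG in every library. mt-Rnr1, the RNA of the small ribosomal subunit (positions 70 to 1024), had 157, 252 and 267 CPM in TAM-MG KO 54, 63 and 65 and 116 and 257 CPM in WT 74 and 78, against 9726, 7752 and 8527 CPM in bulk KO 36, 37 and 26 and 6808, 7648 and 5126 CPM in WT 35, 38 and 110. mt-Rnr2, that of the large subunit (positions 1094 to 2675), had 1392, 1617, 1652, 967 and 2236 CPM in the same TAM-MG libraries and 36936, 31552, 32647, 26405, 31783 and 19111 CPM in the same bulk libraries. Their log2 fold changes were -4.60 (SE 0.34, edgeR adjusted p = 3.18e-06) for mt-Rnr1 and -3.63 (SE 0.30, adjusted p = 6.77e-06) for mt-Rnr2. Because mt-Rnr1 differed more, the ratio of mt-Rnr2 to mt-Rnr1 counts was 6.199 to 8.89 in TAM-MG and 3.73 to 4.16 in bulk. These 2 genes are transcribed as one unit with the valine tRNA mt-Tv between them, described below.

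**Figure D3:**
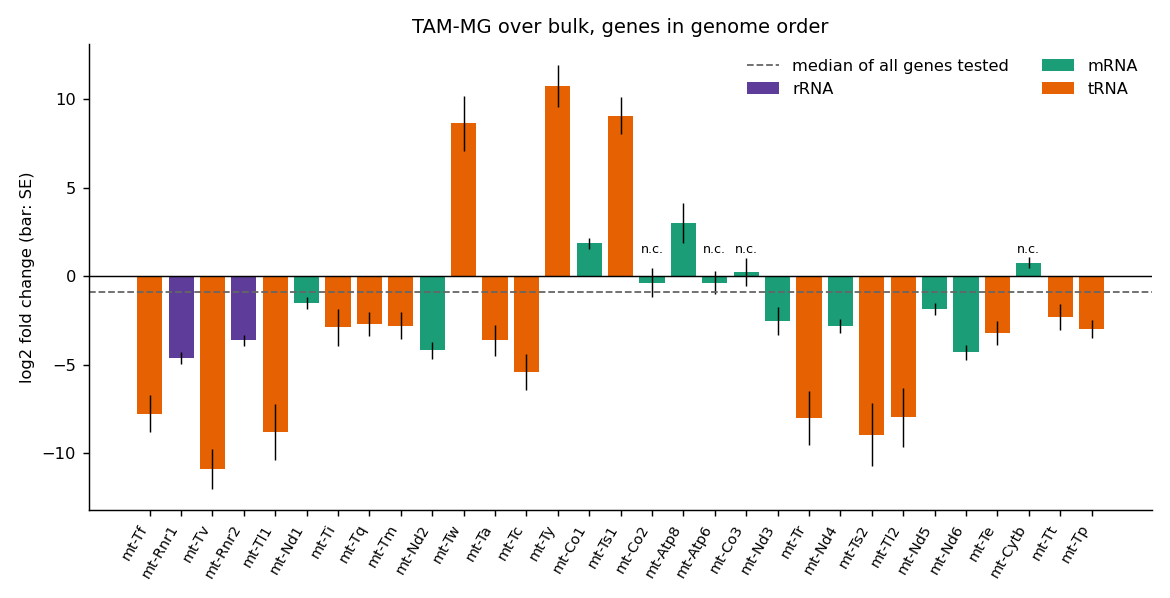
Fitted log2 fold change of TAM-MG over bulk for the 31 members tested, in genome order and coloured by class, with bars for the standard error and a dashed line at the median of all genes tested (-0.89). mt-Tw, mt-Ty, mt-Co1, mt-Ts1 and mt-Atp8 stand above 0 and were called, the 4 genes marked n.c. were not called, and the 22 others lie below 0 and were called.

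Among the 12 mRNAs tested, 2 were called higher in TAM-MG (mt-Co1 and, in an unstable call given below, mt-Atp8) and 6 lower, where 20.5% and 32.4% of all genes were. mt-Co1, the catalytic subunit of cytochrome c oxidase (complex IV), had 3650, 5716 and 4834 CPM in TAM-MG KO 54, 63 and 65 and 2571 and 5583 CPM in WT 74 and 78. In bulk it had 2619, 1241 and 2345 CPM in KO 36, 37 and 26 and 1906, 1590 and 1457 CPM in WT 35, 38 and 110. Its log2 fold change was 1.85 (SE 0.29, edgeR adjusted p = 0.000436) and 1.25 with library size alone, although the raw CPM of bulk KO 36 lay above that of TAM-MG WT 74. mt-Cytb had 4795, 9986 and 9737 CPM in TAM-MG KO 54, 63 and 65 and 4857 and 9172 CPM in WT 74 and 78, against 7793, 4628 and 10851 CPM in bulk KO 36, 37 and 26 and 5461, 5924 and 6004 CPM in WT 35, 38 and 110. These groups overlapped, and mt-Cytb was not called (log2 fold change 0.77, SE 0.30, adjusted p = 0.0505).

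The lower mRNAs encode subunits of complex I, the NADH dehydrogenase at which electrons enter the chain. mt-Nd2 had 186, 319 and 321 CPM in TAM-MG KO 54, 63 and 65 and 145 and 321 CPM in WT 74 and 78, against 5585, 3135 and 13715 CPM in bulk KO 36, 37 and 26 and 6362, 6109 and 6890 CPM in WT 35, 38 and 110. mt-Nd6 had 63.1, 153 and 111 CPM in TAM-MG KO 54, 63 and 65 and 44.6 and 119 CPM in WT 74 and 78, against 3281, 2259 and 4691 CPM in bulk KO 36, 37 and 26 and 1825, 2702 and 2358 CPM in WT 35, 38 and 110. Both were well below bulk in every TAM-MG library, with log2 fold changes of -4.19 (SE 0.46, adjusted p = 4.37e-05 from edgeR) for mt-Nd2 and -4.29 (SE 0.42, adjusted p = 2.08e-05) for mt-Nd6.

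The other complex I mRNAs were lower by smaller amounts. mt-Nd4 had 415, 928 and 738 CPM in TAM-MG KO 54, 63 and 65 and 359 and 804 CPM in WT 74 and 78, against 6943, 3259 and 11055 CPM in bulk KO 36, 37 and 26 and 6296, 5834 and 7034 CPM in WT 35, 38 and 110 (log2 fold change -2.81, SE 0.40). mt-Nd5 had 265, 574 and 510 CPM in TAM-MG KO 54, 63 and 65 and 229 and 468 CPM in WT 74 and 78, against 2924, 1759 and 4084 CPM in bulk KO 36, 37 and 26 and 1669, 1713 and 1415 CPM in WT 35, 38 and 110 (-1.86, SE 0.34). mt-Nd1 had 1605, 2459 and 1851 CPM in TAM-MG KO 54, 63 and 65 and 1171 and 3079 CPM in WT 74 and 78, against 9862, 5067 and 14455 CPM in bulk KO 36, 37 and 26 and 7841, 6909 and 8668 CPM in WT 35, 38 and 110 (-1.50, SE 0.35). In none of these 3 genes did a TAM-MG library reach a bulk library, and the order of the fold changes puts mt-Nd1 nearest to the median of all genes.

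Of the mRNAs inside the copied stretch, only small counts remained. mt-Nd3 had 1.002 to 3.71 CPM in TAM-MG and 6.77 to 36.9 CPM in bulk and was called lower (log2 fold change -2.51, SE 0.78, adjusted p = 0.0205 from edgeR), a call that ended without TAM-MG WT 74 (adjusted p = 0.0644). mt-Atp8, a subunit of ATP synthase, had 11 to 22 counts in TAM-MG and 0 to 3 in bulk and was called higher (2.99, SE 1.12, adjusted p = 0.0422), but it lost the call in 13 of 18 alternatives (adjusted p between 0.00254 and 0.158). mt-Co2 (2.27 to 4.23 CPM in TAM-MG and 1.67 to 14.6 CPM in bulk, log2 fold change -0.38), mt-Atp6 (3.66 to 5.63 and 5.45 to 17.1 CPM, -0.38) and mt-Co3 (2.51 to 5.63 and 2.63 to 15.5 CPM, 0.26) overlapped between TAM-MG and bulk and were not called. The sign of mt-Co3 turned with library size alone (-0.31). mt-Nd4l had 1 to 4 counts in TAM-MG and 0 to 12 in bulk and was not tested.

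By complex, the mRNA counts were divided in a different way in TAM-MG and in bulk. The 7 complex I mRNAs held 21.97 ± 1.95% of mitochondrial mRNA counts in TAM-MG (n = 5) and 75.7 ± 2.43% in bulk (n = 6; exact permutation test, two-sided, p = 0.00433, adjusted p = 0.0249 over 23 comparisons). mt-Cytb, the only mRNA of complex III, held 49.1 ± 3.98% in TAM-MG and 18.9 ± 1.66% in bulk (exact permutation test, p = 0.00433, adjusted p = 0.0249). The 3 mRNAs of complex IV, of which mt-Co1 gave nearly all counts, held 28.9 ± 2.56% in TAM-MG and 5.35 ± 1.12% in bulk (exact permutation test, p = 0.00433, adjusted p = 0.0249). The spread among libraries of one kind was small beside these gaps, and mt-Cytb with mt-Co1 came to 75.4 to 80.4% of mRNA counts in TAM-MG and 21.5 to 27.5% in bulk. By TPM, which takes in the copied stretch, complex I held 15.6 ± 0.965% in TAM-MG and 41.2 ± 2.91% in bulk and mt-Cytb 25.2 ± 3.84% and 7.82 ± 0.553%, whereas complex IV held 34.2 ± 2.81% and 32.4 ± 3.27%. These TPM shares, and the order below, depend on how Salmon divided reads between the members and their copies.

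The order of the mRNAs by TPM differed too, with the copies left out. Gm10925, which matches mt-Atp6 at 100% identity over 678 bases, alone held 4754 to 11403 TPM in TAM-MG. Among the members in TAM-MG mt-Cytb led with 6711 ± 1983 TPM (SD, n = 5) and stood above the next gene in 5 of 5 libraries, ahead of mt-Atp8 (3889 ± 1146), mt-Co3 (3321 ± 429), mt-Co1 (3061 ± 702), mt-Atp6 (2753 ± 1053), mt-Co2 (2574 ± 380) and mt-Nd1 (2140 ± 614). The remaining complex I mRNAs closed the list, with mt-Nd4 at 732 ± 198, mt-Nd2 at 313 ± 89.5, mt-Nd4l at 298 ± 48.0, mt-Nd6 at 288 ± 102, mt-Nd5 at 194 ± 61.8 and mt-Nd3 at 177 ± 44.0 TPM. Neighbours from mt-Atp8 to mt-Nd1 kept their order in only 2 to 4 of the 5 libraries, and so did mt-Nd2 and mt-Nd4l (3 of 5), mt-Nd4l and mt-Nd6 (2 of 5) and mt-Nd5 and mt-Nd3 (3 of 5). In bulk mt-Co3 led with 6469 ± 1693 TPM (SD, n = 6) and stood above mt-Co2 (4649 ± 1785) in 6 of 6 libraries, followed by mt-Atp6 (4453 ± 1880), mt-Nd1 (3757 ± 1436), mt-Nd6 (3536 ± 1531) and mt-Cytb (2908 ± 1073). mt-Atp8 (2576 ± 1277), mt-Nd2 (2401 ± 1098), mt-Nd4 (2124 ± 793), mt-Nd3 (1820 ± 608) and mt-Nd4l (1295 ± 573) came after these, with mt-Co1 (737 ± 284) and mt-Nd5 (545 ± 284) at the end. mt-Co1 thus had rank 4 of the 13 in TAM-MG and rank 12 in bulk, and mt-Nd6 rank 11 in TAM-MG and rank 5 in bulk. Neighbours in the bulk order from mt-Co2 to mt-Nd3 traded places in 1 to 3 of the 6 libraries.

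tRNA genes showed the extremes in both directions. Of the 22, 14 were called lower in TAM-MG, 3 were called higher (mt-Tw, mt-Ty and mt-Ts1) and 5 had too few counts to be tested (mt-Tn, mt-Td, mt-Tk, mt-Tg and mt-Th, with 0 to 7 counts in any library), where 20.5% of all genes were called higher and 32.4% lower. Of the 14 called lower, 9 had at least 10 counts in every bulk library but not in every TAM-MG library, and the 3 called higher, with the mRNA mt-Atp8, had them in every TAM-MG library but not in every bulk library, so that these passed the filter through the samples where they are high and their number carries no weight. The other 5 (mt-Tq, mt-Tm, mt-Te, mt-Tt and mt-Tp) had at least 10 counts in all 11 libraries and were called lower. mt-Tq, the glutamine tRNA on the minus strand, had the highest mean over all 11 libraries, although mt-Ts1 and mt-Ty were above it in TAM-MG. It stood at 5.11, 25.1 and 31.2 CPM in TAM-MG KO 54, 63 and 65 and 13.02 and 25.8 CPM in WT 74 and 78, against 340, 68.2 and 100 CPM in bulk KO 36, 37 and 26 and 80.6, 205 and 403 CPM in WT 35, 38 and 110 (log2 fold change -2.71, SE 0.66). mt-Tp, the proline tRNA, ran from 4.54 to 10.7 CPM in TAM-MG and from 32.7 to 220 CPM in bulk (-2.99, SE 0.50). Both lay lower in every TAM-MG library than in any bulk library.

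The higher tRNA genes lie next to mt-Nd2 and mt-Co1. mt-Ts1, a serine tRNA on the minus strand at positions 6870 to 6938, overlaps the 3′ end of mt-Co1 (5328 to 6872) by 3 bases. It had 1574, 4114 and 1548 counts in TAM-MG KO 54, 63 and 65 and 715 and 3398 in WT 74 and 78, against 32, 5 and 2 in bulk KO 36, 37 and 26 and 0, 5 and 0 in WT 35, 38 and 110, which is 220 times as high a CPM in TAM-MG (95% counting interval 164 to 303). mt-Ty, the tyrosine tRNA on the minus strand at 5260 to 5326, is separated from the start of mt-Co1 by 1 base, and its 2530 counts in TAM-MG against 2 in bulk are a ratio of 1078 (95% counting interval 298 to 8910). mt-Tw, the tryptophan tRNA at 4950 to 5016, overlaps the end of mt-Nd2 by 2 bases and had 15 to 68 counts in each TAM-MG library and 0 in every bulk library, at least 65.6-fold higher in TAM-MG with a floor of 3 counts over the bulk group. The libraries keep no strand, so a read at mt-Ts1 or mt-Ty from a transcript of mt-Co1 that extends beyond the gene cannot be told from one of the tRNA.

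The lowest tRNAs in TAM-MG had next to no counts there. mt-Tv had 0, 1 and 1 counts in TAM-MG KO 54, 63 and 65 and 0 in both WT libraries, against 2000, 431 and 655 in bulk KO 36, 37 and 26 and 203, 523 and 369 in WT 35, 38 and 110, a CPM 2452 times as high in bulk (95% counting interval 678 to 20260). mt-Ts2, the other serine tRNA, had 0 counts in all 5 TAM-MG libraries and 377 in bulk, at least 147-fold lower in TAM-MG. mt-Tl2 (1 count in TAM-MG and 458 in bulk) and mt-Tr (2 and 488) were 537 times (95% counting interval 95.9 to 21270) and 286 times (78.8 to 2370) as high in bulk. mt-Tf, mt-Tl1 and mt-Tc had 320 times (183 to 620), 340 times (132 to 1250) and 59.7 times (46.2 to 78.4) as high a level in bulk. Several of these intervals overlap and the bound for mt-Ts2 rests on the floor, so no order is read among these tRNAs. Counting intervals and floors cover counting error only, since reads without molecular identifiers are not independent molecules. The 7 others called lower (mt-Ti, mt-Tq, mt-Tm, mt-Ta, mt-Te, mt-Tt and mt-Tp) had log2 fold changes between -3.61 and -2.29.

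**Figure D4:**
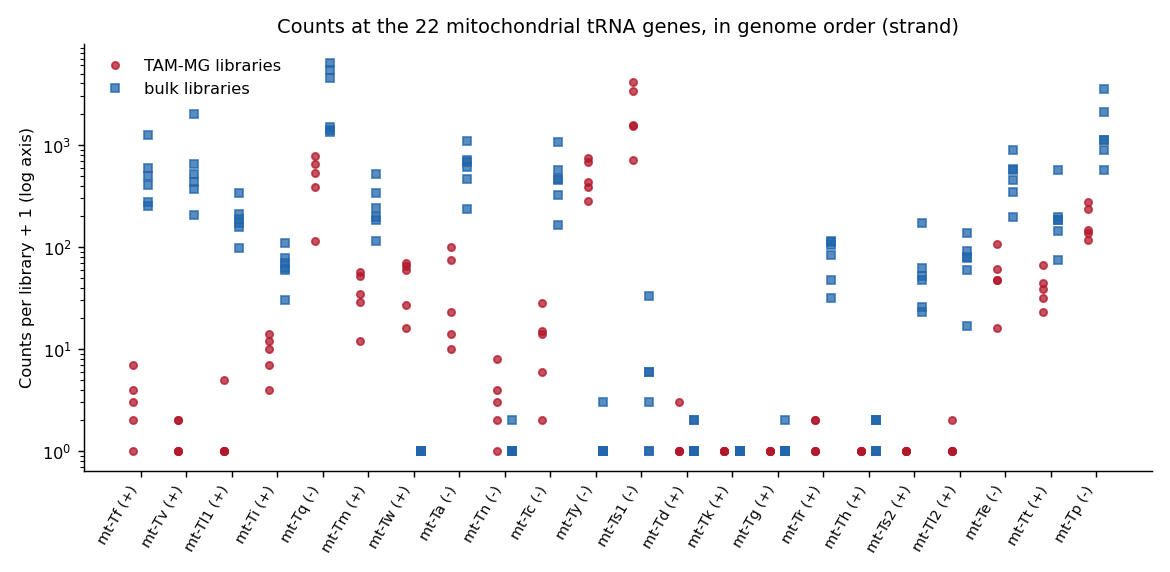
Counts at each of the 22 mitochondrial tRNA genes plus 1 (log axis), in genome order with the strand in brackets, with 1 point per library for 5 TAM-MG libraries (circles) and 6 bulk libraries (squares). mt-Tw, mt-Ty and mt-Ts1 are the tRNA genes counted mainly in TAM-MG, and mt-Tv, mt-Ts2 and mt-Tl2 are among those counted mainly in bulk.

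Counts at genes annotated on the minus strand, which are mt-Nd6 and 8 tRNAs, made up 1.34 ± 0.299% of mitochondrial counts in TAM-MG (n = 5) and 4.31 ± 0.729% in bulk (n = 6; exact permutation test, p = 0.00433, adjusted p = 0.0249). mt-Nd6 is their main component in bulk, at 2.82 to 4.56% of mitochondrial counts, and was 0.423 to 0.687% in TAM-MG. mt-Ts1 and mt-Ty are annotated on the same strand and went the other way. Since the libraries keep no strand, reads at all of these genes, mt-Nd6 included, may come from transcripts of either strand.

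In bulk, KO tumours had on average more mitochondrial transcripts than WT tumours, but the groups overlapped. The share was 8.35 ± 2.12% of counts in KO and 6.48 ± 0.594% in WT (SD, n = 3 each; difference 1.88 percentage points, exact permutation test, two-sided, p = 0.3, where 3 against 3 cannot go below 0.1; adjusted p = 0.787). KO 37 lay below WT 35 and WT 38. The difference was 1.88 without WT 35, 3.01 without KO 37 and 0.910 without KO 26. The spread in KO came from the mRNAs, at 3.91, 2.14 and 6.13% in KO 36, 37 and 26 and 3.14, 3.08 and 3.38% in WT 35, 38 and 110. The rRNAs varied less within KO, at 4.67, 3.93 and 4.12% in KO 36, 37 and 26 and 3.32, 3.94 and 2.42% in WT 35, 38 and 110 (exact permutation test, p = 0.2, adjusted p = 0.6), and WT 38 reached the level of KO 37.

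Gene by gene, edgeR's quasi-likelihood test called none of the 27 members tested in bulk (0% of 17028 genes were called in either direction), although 3 members were higher, and 0 lower, with an unadjusted p below 0.05. Neither DESeq2 nor edgeR's likelihood ratio test called any. The sign was positive for 25 of 27 members, for 11 of 11 mRNAs and for 12 of 14 tRNAs, with a median log2 fold change of 0.66 over the members and 0.003 over all genes. On the TMM scale 4 members lay higher in all KO than in all WT tumours (mt-Rnr1, mt-Rnr2, mt-Nd5 and mt-Tt, where 7.82% of all genes did so) and 0 lay lower (9.23% of all genes). These genes share their precursors, so that their signs are not independent of each other. The median was 0.92 without KO 37, 0.37 without KO 36 and 0.47 without WT 35.

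mt-Nd5, a subunit of complex I, was the mRNA with the largest difference relative to its error. It had 2924, 1759 and 4084 CPM in KO 36, 37 and 26 and 1669, 1713 and 1415 CPM in WT 35, 38 and 110, so that the groups did not overlap (log2 fold change 0.96, SE 0.35, edgeR adjusted p = 0.426). Its TPM was 885, 417 and 922 in KO 36, 37 and 26 and 383, 396 and 264 in WT 35, 38 and 110, also without overlap (log2 fold change 1.03 on log2(TPM + 1), adjusted p = 0.407 from limma). KO 37 lay only just above the WT tumours on both scales. The other 2 members with a p under 0.05 were tRNAs. mt-Tp had 220, 45.3 and 140 CPM in KO 36, 37 and 26 and 32.7, 50.9 and 70.8 CPM in WT 35, 38 and 110 (log2 fold change 1.47, SE 0.53, adjusted p = 0.416 from edgeR), and mt-Tv had 126, 21.8 and 43.8 CPM in KO and 11.7, 23.8 and 23.6 CPM in WT (1.76, SE 0.63, adjusted p = 0.418). In both, KO 37 lay inside the WT range, and without KO 36 the log2 fold change was 0.95 for mt-Tp and 0.83 for mt-Tv.

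The rRNAs differed by less. mt-Rnr1 had a log2 fold change of 0.49 (SE 0.32, adjusted p = 0.695 from edgeR) and mt-Rnr2 of 0.47 (SE 0.36, adjusted p = 0.745), and their ratio was 3.80 to 4.07 in KO and 3.73 to 4.16 in WT. Among the other mRNAs tested the log2 fold change ran from 0.24 (mt-Nd4) to 1.20 (mt-Co3), with adjusted p of 0.632 or more. The value of mt-Co3 rests on KO 36 with 15.5 CPM, since KO 37 and KO 26 had 2.63 and 3.68 CPM and the WT libraries 2.82 to 4.10 CPM, and without KO 36 its log2 fold change was 0.03. By TPM all 13 mRNAs had a positive sign (median 0.38, against -0.08 over all genes, limma on log2(TPM + 1)), from 0.08 for mt-Nd3 to 1.03 for mt-Nd5. The share of each complex among the mRNAs did not separate the genotypes, with complex I at 74.7 ± 3.24% of mRNA counts in KO and 76.7 ± 1.18% in WT (n = 3 each; exact permutation test, p = 0.4, adjusted p = 0.894).

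Cell type markers also differed among the bulk libraries. The 12 markers of microglia and macrophages all had a negative sign in KO (median log2 fold change -1.54, 10 with an unadjusted p below 0.05, 0 called by edgeR's quasi-likelihood test, 6 lower by its likelihood ratio test and 7 lower by DESeq2), and their summed level was 816 to 1716 CPM in KO and 2842 to 4937 CPM in WT. The 19 neuronal markers had a positive sign in 14 (median 0.33, 1 with an unadjusted p below 0.05, 0 called by edgeR or DESeq2), and they summed to 6817, 2707 and 6369 CPM in KO 36, 37 and 26 and 4021, 4155 and 5043 CPM in WT 35, 38 and 110. Neuronal markers and mitochondrial mRNA were therefore both highest in KO 36 and KO 26 and lowest in KO 37. This low place of KO 37 was not particular to neurons. Its astrocyte markers summed to 1524 CPM, against 3605 to 5173 CPM in the other bulk libraries. RNA that stays in the nucleus summed to 15214 CPM there, against 17407 to 24490 CPM. The part of neurons, of other cells or of myeloid cells in the mitochondrial values was not tested.

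In TAM-MG, the genotypes were alike in their range of mitochondrial share, and each held libraries near 1% and near 2%. The means were 1.84 ± 0.506% in KO (n = 3) and 1.64 ± 0.831% in WT (n = 2; difference 0.193 percentage points, exact permutation test, two-sided, p = 1, where 3 against 2 cannot go below 0.2; adjusted p = 1). The KO libraries, from 1.26 to 2.22%, lay between the WT libraries at 1.05 and 2.23%. The difference was -0.395 without WT 74 and 0.781 without WT 78. rRNAs were 10.1 ± 1.98% of mitochondrial counts in KO and 10.7 ± 0.639% in WT (exact permutation test, p = 0.8, adjusted p = 1).

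EdgeR's quasi-likelihood test called none of the 25 members tested in TAM-MG (0% of 14872 genes in either direction), and 0 had an unadjusted p below 0.05. Neither DESeq2 nor edgeR's likelihood ratio test called any. The sign was positive for 14 of 25, with a median log2 fold change of 0.06 over the members and 0.08 over all genes. Of the members, 0 lay higher and 2 (mt-Te and mt-Tt) lower in all KO than in all WT libraries, where 14.6% of all genes did the one and 11.5% the other. The 7 mRNAs not wholly inside the copied stretch ran from -0.15 (mt-Nd1) to 0.38 (mt-Nd6), with standard errors between 0.46 and 0.59. mt-Rnr1 stood at 0.24 (SE 0.48) and mt-Rnr2 at -0.08 (SE 0.44). By TPM, 11 of 13 mRNAs had a positive sign (median 0.27, 0 with p under 0.05 from limma). The median over the members was -0.32 without WT 74 and 0.87 without WT 78, so that either WT library decides the sign.

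**Figure D5:**
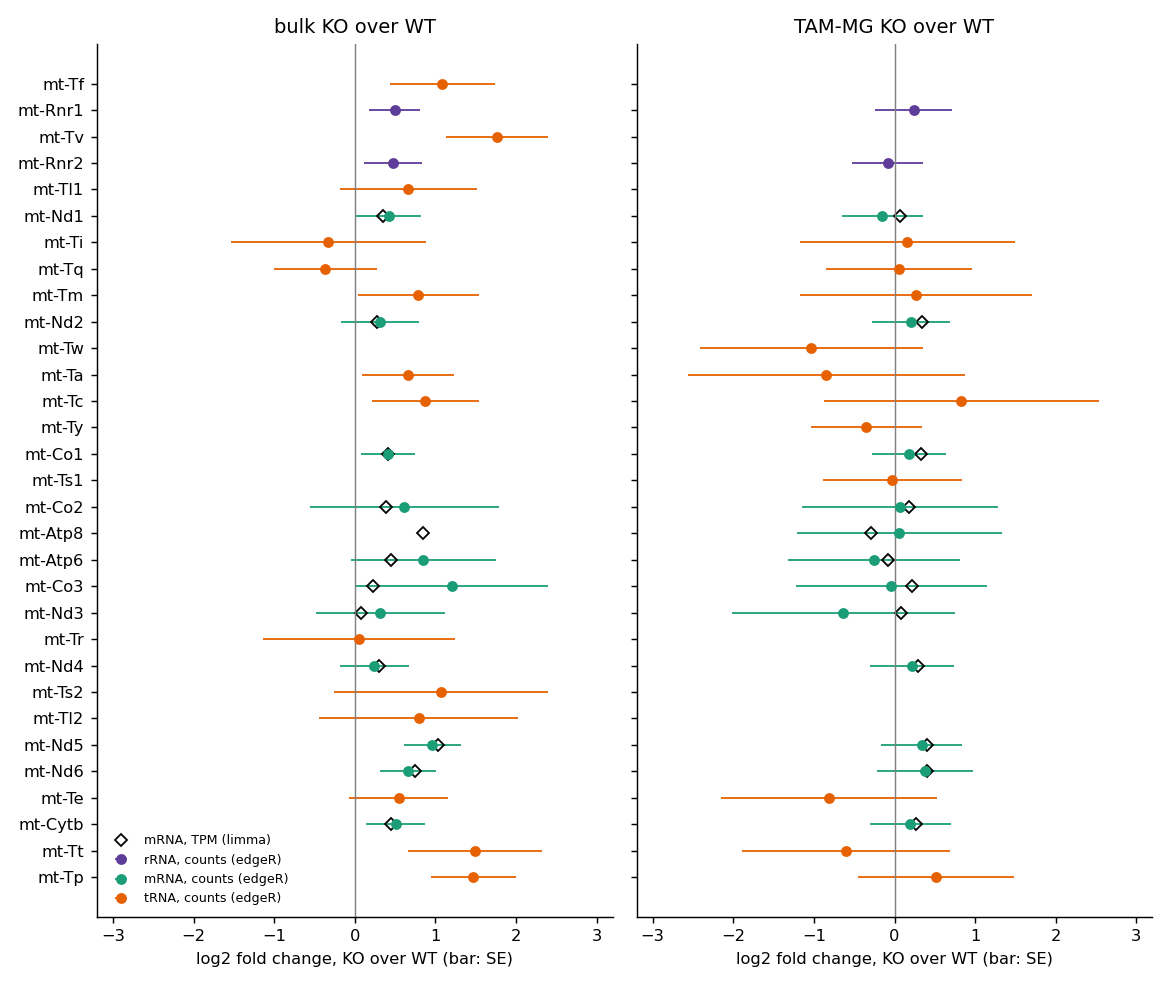
Log2 fold change of KO over WT for each member tested in bulk (left panel) and TAM-MG (right panel), in genome order, with bars for the standard error and open diamonds for the limma estimate on log2(TPM + 1) of the mRNAs. In bulk 25 of 27 estimates lie to the right of 0 (median 0.66), in TAM-MG 14 of 25 (median 0.06), and no gene was called in either.

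Whether the genotype effect differed between TAM-MG and bulk was tested with an interaction term in a fit of all 11 libraries. Of 31 members tested, 0 were called in either direction by edgeR's quasi-likelihood test, 0 had an unadjusted p below 0.05, and DESeq2 and edgeR's likelihood ratio test called 0 (0.197% of 21342 genes were called higher and 0.0281% lower). The median of the difference, TAM-MG minus bulk, was -0.55 over the members and 0.30 over all genes, and it turned to 0.34 over the members without TAM-MG WT 78. Genotype effects on mitochondrial transcripts were thus not shown to differ between sorted microglia and whole tumours.

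The nuclear genes that serve the mitochondrial genome were read beside it, from lists of 8 to 20 genes, and their calls in TAM-MG against bulk stand beside 20.5% higher and 32.4% lower among all genes. In TAM-MG against bulk, Polg, the catalytic subunit of the polymerase that copies mitochondrial DNA, was called higher (log2 fold change 1.71, SE 0.44, adjusted p = 0.00802 from edgeR), and 5 of 10 genes for copying and packaging this DNA were called higher and 0 lower. Of 10 genes of mitochondrial transcription, 2 were called higher and 2 lower. Tefm, the elongation factor, was higher (3.10, adjusted p = 0.000434) and Tfb2m, an initiation factor, lower (-3.22, adjusted p = 0.0191), while the polymerase Polrmt (0.41) and the packaging factor Tfam (-0.61) were not called. For RNA processing 4 of 12 genes were called higher and 0 lower, among them Hsd17b10, a subunit of the enzyme that cuts the 5′ ends of tRNAs (2.16, adjusted p = 0.000181). Lrpprc and Slirp, which together protect mitochondrial mRNAs from decay, were not called (0.49 and 0.36), and 2 of 8 genes of stability and decay were called higher.

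Nuclear subunits of the same respiratory complexes were also compared between TAM-MG and bulk, again beside 20.5% higher and 32.4% lower among all genes. Of 13 nuclear genes listed for complex I, 8 were called higher in TAM-MG and 2 lower (median log2 fold change 1.01), with Ndufs3 at 2.89 (SE 0.31). All 6 of the 6 mitochondrial complex I mRNAs tested were called lower. The list holds only part of the nuclear subunits of complex I, and it includes Ndufa4, which belongs to complex IV. For complexes III, IV and V, 7 of 20 were called higher and 7 lower (median -0.06), with Uqcrc1 at 3.65 (SE 0.27) and Cox8a at -1.77 (SE 0.20). Of the regulators of mitochondrial biogenesis, 2 of 9 were called higher and 2 lower, and the lower ones were the coactivators Ppargc1a (edgeR adjusted p = 0.0032) and Ppargc1b (edgeR adjusted p = 0.00122). Of 17 genes that modify mitochondrial RNA, 4 were called higher and 0 lower.

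Between genotypes, edgeR's quasi-likelihood test called 0 of these nuclear genes in either experiment. Other tools called few: in bulk the likelihood ratio test called 1 gene of stability and decay lower and DESeq2 called 1 gene each of transcription, of stability and decay and of RNA modification lower, and in TAM-MG DESeq2 called 1 gene of transcription higher. In bulk, 11 of the 13 nuclear genes listed for complex I and 19 of the 20 listed for complexes III, IV and V had a positive sign (medians 0.33 and 0.26, with 1 gene of each list higher at an unadjusted p below 0.05). In TAM-MG, 0 of 13 and 1 of 20 had a positive sign (medians -0.43 and -0.35, with 1 and 2 genes lower at an unadjusted p below 0.05). In bulk the genes of mitochondrial transcription had a positive sign in 2 of 10 (median -0.53), those of DNA copying in 6 of 10 (0.28), of RNA processing in 4 of 12 (-0.15), of stability and decay in 4 of 7 (0.40), of RNA modification in 5 of 16 (-0.17) and the regulators of biogenesis in 3 of 9 (-0.23). In TAM-MG these were 7 of 10 (0.51), 5 of 10 (0.10), 4 of 12 (-0.16), 2 of 8 (-0.64), 10 of 17 (0.30) and 6 of 8 (0.52). Among the other lists, 1 gene each of transcription, stability and decay, modification and biogenesis was lower at an unadjusted p below 0.05 in bulk, and in TAM-MG 2 genes of transcription and 1 of biogenesis were higher and 1 of stability and decay was lower. The interaction called 0 genes of these lists by edgeR's quasi-likelihood test. At an unadjusted p below 0.05, 3 nuclear genes listed for complex I and 3 listed for complexes III, IV and V were lower in TAM-MG relative to bulk. At the same level, 3 genes of transcription and 3 regulators of biogenesis were higher, and RNA modification had 1 higher and 1 lower. Among all genes, 9.30% were higher and 2.93% lower. The likelihood ratio test called 2 genes of transcription higher. DESeq2 called 2 of transcription higher, 1 of RNA modification each way and 1 of complex I lower.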

How the data were processed

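RNA-Seq was carried out on 11 libraries, prepared with SmartSeq2 and Nextera XT and sequenced as 75 bp read pairs. The authors aligned reads with STAR and deposited raw counts per gene, and they estimated TPM per gene with Salmon, both on Ensembl GRCm38; neither version is given in the sources used here. The deposited TAM-MG tables end with an unnamed total row (100% of the sum), which was left out. The other deposited values, the TAM-MG TPM, are TPM too, although their unit was recorded as other because of that row. Bulk TPM cover 12719 genes and sum to 617081 to 642370 per library. Log2 fold changes are edgeR estimates from the deposited counts, or limma estimates where TPM is named. Folds of tRNA genes given with counting intervals or floors are ratios of CPM from counts summed over libraries. Folds between shares are ratios of group means.

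Counts were tested with edgeR 4.0.16 (R 4.3.3; filterByExpr with a minimum count of 10 and total of 15, TMM, quasi-likelihood) over all genes of each fit, with Benjamini-Hochberg adjustment, and called at an adjusted p under 0.05 and 1.5-fold. Log2(TPM + 1) was tested with limma 3.58.1 for genes that reached 1 TPM in 2 or more libraries. Shares were compared by exact permutation tests (SciPy 1.17.1). Alternatives were DESeq2 1.42.0, the likelihood ratio test, other scalings, filters and pseudocounts, and leaving out each library. Levels are CPM of raw counts. Nuclear copies were found with BLASTN 2.17.0 against annotated transcripts (identity of 85% or more over at least 50 bases). Gene names, coordinates and sequences are from GENCODE M21 (GRCm38), which named 50376 of 50686 identifiers.

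All members were named, with the 4 most counted tRNAs and those called; genes named from the nuclear lists come from the first 4 tested genes of each and the called ones, and 1 of these is not reported here. Members and lists were chosen with earlier results of these data known. Scripts were first tested on simulated data.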

Additional observations from a re-analysis of the deposited data

Results flagged for a closer look

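Dixon's test was run on 52 sets of values in the 6 bulk or the 5 TAM-MG libraries. Each set was an mRNA, an rRNA, 1 of the 4 most counted tRNAs or a share of counts. In 6 sets a library lay far from the others at the 95% level. Chance gives this in about 1 of 20 sets when values are normal and independent. These values were not logged, some lie near 0 and the genes share precursors, so the number of sets flagged carries no weight. Bulk KO 36 held 4 of the 6. mt-Tv had 126 CPM there against 11.7 to 43.8 CPM in the other bulk libraries, mt-Co3 had 15.5 CPM against 2.63 to 4.10, mt-Ts1 had 2.01 CPM against 0 to 0.253, and mt-Nd4l had 0.753 CPM against 0 to 0.173. The last 3 lie between the ends of the copied stretch, where mt-Ts1 itself matches an annotated copy over only 3 of its 69 bases, and rest on 32, 247 and 12 counts in this library for mt-Ts1, mt-Co3 and mt-Nd4l. mt-Nd2 had 13715 CPM in bulk KO 26 against 3135 to 6890 CPM in the other bulk libraries. In TAM-MG, mt-Nd3 had 3.71 CPM in WT 78 against 1.002 to 1.72 CPM in the other 4 libraries.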

How the results depend on the processing

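On counts, the lower mitochondrial share and the lower rRNA share of TAM-MG against bulk kept their direction under all alternatives. On TPM the lower share did so only with the near-identical copies left out. With their TPM added in TAM-MG alone, the means were 4.12% in TAM-MG and 3.73% in bulk, where no copies are listed. The share difference of -5.66 was -3.22 as a share of the summed deposited TPM of each library and -1.08 on the full TPM scale, where the ranges met; these tables hold no rRNA. With at least 10 counts in every library, which leaves fewer genes, 1 member was called higher and 13 lower; leaving out single libraries gave 4 to 5 higher and 19 to 22 lower. Leaving out single libraries turned the sign of 3 genotype differences with no call: the share in TAM-MG ran from -0.395 to 0.781 (0.193 with all libraries), the rRNA share of mitochondrial counts from -2.54 to 9.72 in bulk (3.34) and from -1.77 to 0.155 in TAM-MG (-0.672). With single libraries left out, the bulk share difference ran from 0.910 to 3.01. No member was called between genotypes, or in the interaction, under any alternative run. Of 1169 values of single members under alternatives, 1151 kept their side of the threshold, 14 lost a call (mt-Atp8 13, mt-Nd3 1) and 4 gained one (mt-Cytb, adjusted p between 0.0374 and 0.621 over 19 alternatives); the cause was not tested. Over all genes, bulk KO against WT gave 0 calls, 383 with the likelihood ratio test, 470 with DESeq2, 102 without a filter, 62 over genes that had 10 counts or more in all libraries, and 8 without KO 37; TAM-MG gave 0, 245 with the likelihood ratio test and 473 with DESeq2; the interaction gave 48, 835 and 1210, 8 with RLE size factors, 3 with the stricter filter, 76 with none, and 1 to 361 with single libraries left out (361 without TAM-MG WT 78). No paired analysis was possible because the genotypes share no replicate numbers. Groups of 2 and 3 libraries and the low counts at tRNA genes and in the copied stretch limit what differences could be seen.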
